A study of Mus musculus with 6 samples.

Results

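Signalling by TGF-beta, activins and bone morphogenetic proteins (BMPs) was followed through 43 genes, picked by gene name as ligands, receptors, Smads, secreted antagonists and feedback genes. All 43 were found among the 54532 named genes of the table: 16 belong to the TGF-beta and activin arm, 16 to the BMP arm and 11 serve both arms or have a mixed role. The RNA came from C2C12, a mouse myoblast line that fuses into myotubes when it differentiates. The 3 wild-type libraries came from C2C12 cells with no stated treatment. The 3 Gmppb-KO libraries, whose genotype is labelled Gmppb mutant, came from C2C12 cells that had received CRISPR/Cas9 plasmids with guides to exons 1 and 5 of Gmppb, the enzyme subunit that makes GDP-mannose. Those cells were selected in puromycin at 4 µg/ml and grown up as monoclonal cells, and cells of both genotypes had been cultured for 2 days when RNA was taken. How many clones the knockout libraries represent is not stated, nor whether the wild-type cells went through transfection and selection, so editing, clone and selection cannot be told apart. Separate cultures are not documented for the replicates, and the p-values therefore describe only the spread among these 6 libraries, part of which may be technical.

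Ligands of this superfamily are secreted dimers that bring together type 2 and type 1 receptor kinases at the cell surface. TGF-beta and activin receptors then phosphorylate Smad2 and Smad3, BMP receptors phosphorylate Smad1, Smad5 and Smad9, and both sets of Smads enter the nucleus with the shared partner Smad4. Secreted antagonists such as noggin and follistatin trap ligands outside the cell, and inhibitory Smads, Smurf ligases and Ski proteins damp the signal inside it. In muscle precursors, TGF-beta and activins are known to hold back differentiation, and BMPs are known to divert C2C12 cells towards an osteoblast fate.

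Libraries held 16011021 to 18566759 counts in named genes. Gmppb mRNA was present in all 6 libraries and did not pass the test (log2 fold change -0.34 ± 0.26 SE), so the transcript count does not check the labels, whereas the myogenic regulator Myod1 was at 152 to 163 CPM (counts scaled to the size of the library) in wild-type and 0.326 to 0.560 CPM in Gmppb-KO. Gmppb-KO replicate 3 stood apart from the other libraries. Genes of at least 6000 bases had a median log2 deviation of 0.61 in it, against -0.33 to 0.08 in the other 5 libraries. Of 8 tested myoblast markers 4 were called lower (Myod1, Pax7, Myog, Chrnd), and the 8 summed to 4057 to 5864 CPM in wild-type and 2320 to 4233 CPM in Gmppb-KO. Over all tested genes, 2.32% were called higher and 3.27% lower. Of 7 tested fibroblast markers 2 were called higher (Dcn, Mfap5) and 1 lower (Osr1), the whole list summed to 1004 to 1139 CPM against 1821 to 2206 CPM, and Lum was at 0 throughout. Col3a1 alone gave 521 to 763 CPM against 898 to 1468 CPM of that sum and was not called (edgeR adjusted p 0.170). The osteoblast and chondrocyte list summed to 43.7 to 61.1 CPM against 28.9 to 51.8 CPM, with Ibsp, Acan and Col2a1 at 0. The smooth muscle list summed to 4100 to 6427 CPM against 2644 to 5064 CPM with Rgs5 at 0. It shares Des with the myoblast list, so the sums of these lists are not separate, and 0 of its 6 tested genes were called. The endothelial list reached at most 1.04 CPM with Pecam1 and Cdh5 at 0, and the leukocyte list at most 6.14 CPM with Itgam and Cd3e at 0. The part of these marker levels in the results was not tested. In such bulk RNA, fewer cells of a kind and less RNA per cell cannot be told apart.

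The antagonists Fstl1 and Nog were the 2 members that rose in Gmppb-KO cells by edgeR's quasi-likelihood test (Benjamini-Hochberg adjusted p under 0.05, 3 against 3 libraries), and no member fell. The shares of all tested genes called higher and lower were 2.32% and 3.27%. Of the 43 genes 38 had enough reads to be tested, so 5.26% of the tested members were called, close to the 5.59% called over all 12786 tested genes. At an unadjusted p under 0.05, 12 members passed, 31.6% of those tested, against 20.1% of all tested genes. DESeq2 called 9 of the 41 members to which it gave an adjusted p, or 22.0%, against 8.17% of all genes: Chrd, Fstl1, Fstl3, Inhba, Nog, Smad9 and Tgfb2 higher, Grem1 and Tgfb1 lower. The DESeq2 count was 4 without wild-type replicate 1 and 5 without wild-type replicate 2, where the share of all genes called was also lower, at 4.39% and 4.75%. Limma voom called 3 members, Fstl1, Nog and Grem1, with 5.53% called overall.

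The libraries of the 2 groups did not overlap in 16 of the 38 tested members, 13 higher and 3 lower in Gmppb-KO, which is 42.1% against 26.1% of all tested genes. The matching shares of all genes were 13.1% higher and 13% lower. Fst, among the 3 lower, and Smad9, among the 13 higher, reached the low-count filter in all 3 libraries only of the group where they were high. The log2 fold change was above 0 in 27 members and below 0 in 11, and its median was 0.39 over the members and 0.11 over all tested genes. Gmppb-KO replicate 3 carried much of that difference: it held the highest CPM of 24 members, 63.2%, against 36.9% of all tested genes and 63.8% of genes of at least 6000 bases. Without it the median was -0.00 over the members and -0.03 over all genes. The share of tested members of at least 6000 bases was 34.2%, against 29.1% of all tested genes. By arm, edgeR called 0 of 16 tested TGF-beta and activin genes (4 at an unadjusted p under 0.05, 4 by DESeq2, 0 by limma voom). It called 1 of 12 tested BMP genes, Nog (5 at an unadjusted p under 0.05, 4 by DESeq2, 2 by limma voom), and 1 of 10 genes of mixed role, Fstl1 (3, 1 and 1 in the same order). The median log2 fold changes were 0.39, 0.86 and 0.28.

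**Figure D1:**
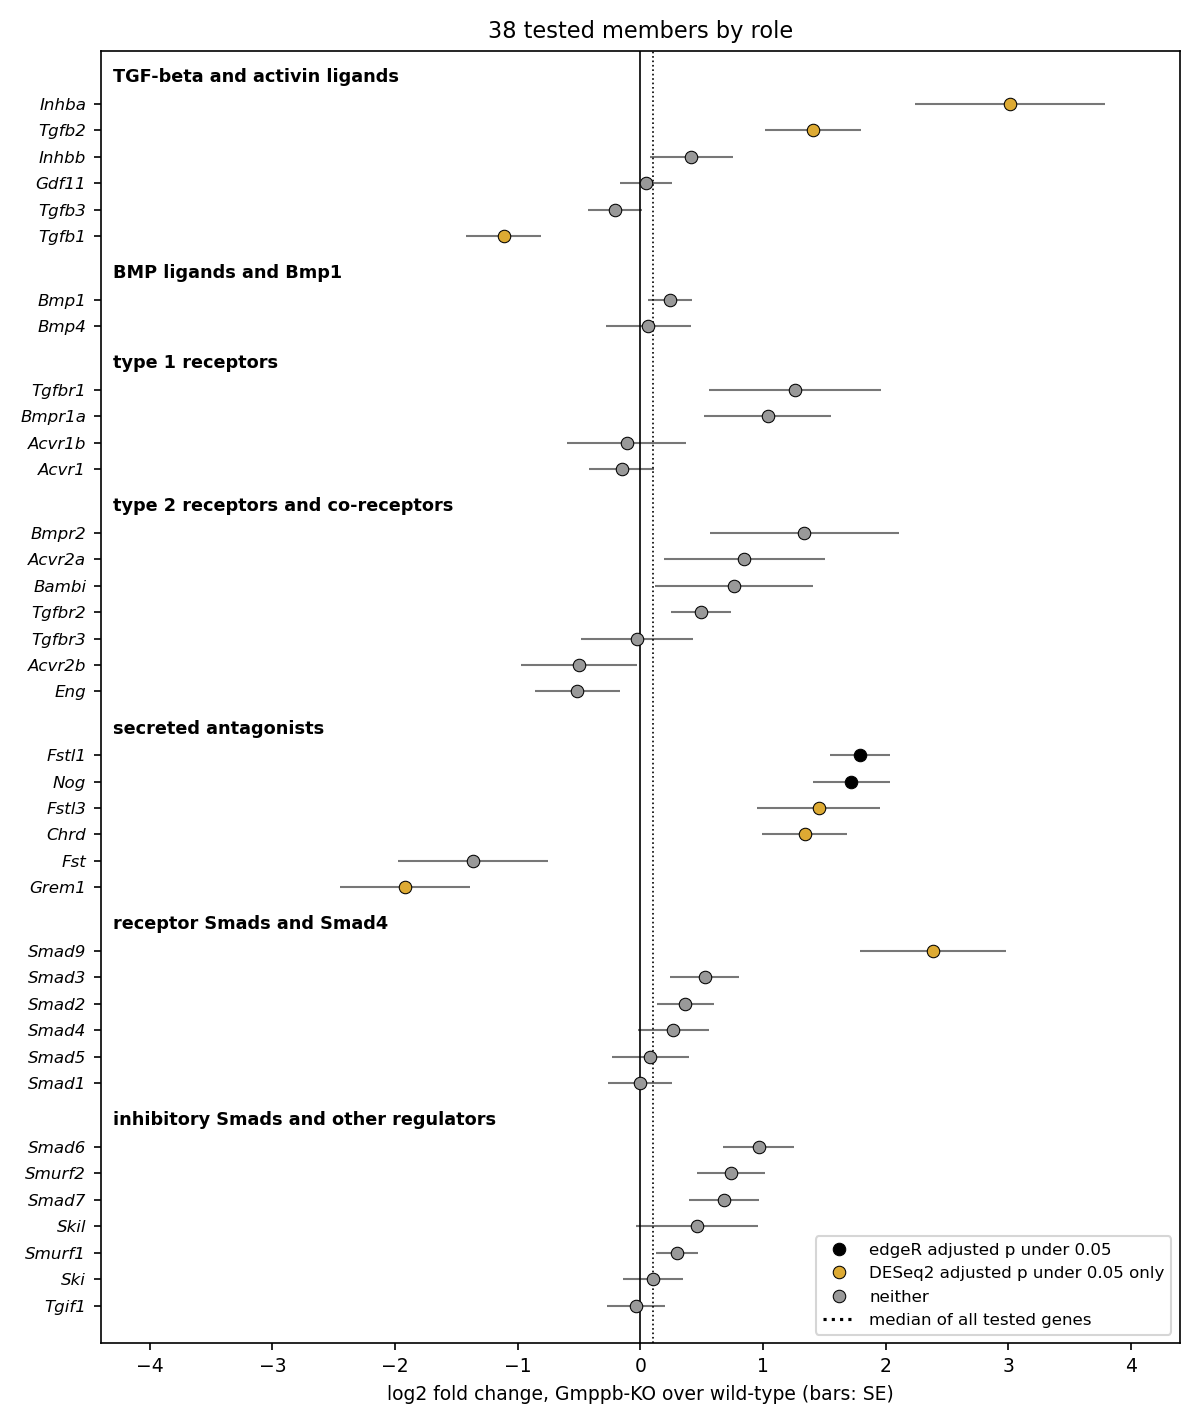
Log2 fold change of Gmppb-KO over wild-type with its standard error for the 38 tested members, grouped by role. Black points passed edgeR, yellow points passed DESeq2 but not edgeR, grey points passed neither, and the dotted line is the median of all tested genes at 0.11. The secreted antagonists span -1.92 to 1.79, while the receptor genes are all grey.

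Promoter sequences are shown for 4 of the genes that DESeq2 called, because their windows hold the short DNA motifs bound by the Smads of the 2 arms; the genes were chosen with their values known. Tgfb2 is a TGF-beta ligand, Grem1 and Chrd encode BMP antagonists and Smad9 is a BMP-activated Smad. Each window is the 250 bases upstream of the RefSeq start (GRCm38.p6), on the gene's strand, 5′ to 3′. Capitals mark CAGAC, which is bound by Smad3 and Smad4, or GGCGCC, a GC-rich element bound by BMP-activated Smads, on either strand. They are Tgfb2 at chr1:186705990-186706239 (minus strand), Grem1 at chr2:113758649-113758898 (minus strand), Smad9 at chr3:54755332-54755581 (plus strand) and Chrd at chr16:20732877-20733126 (plus strand).
Tgfb2: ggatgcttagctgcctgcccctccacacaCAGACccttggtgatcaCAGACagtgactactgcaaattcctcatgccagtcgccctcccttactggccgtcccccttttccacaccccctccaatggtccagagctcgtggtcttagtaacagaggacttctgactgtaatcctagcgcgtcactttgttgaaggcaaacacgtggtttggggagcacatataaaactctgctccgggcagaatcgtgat
Grem1: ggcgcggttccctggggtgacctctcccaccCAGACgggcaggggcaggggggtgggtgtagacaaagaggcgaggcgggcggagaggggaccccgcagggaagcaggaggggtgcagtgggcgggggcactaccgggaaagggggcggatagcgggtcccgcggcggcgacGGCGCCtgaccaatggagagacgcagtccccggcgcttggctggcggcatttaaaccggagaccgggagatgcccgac
Smad9: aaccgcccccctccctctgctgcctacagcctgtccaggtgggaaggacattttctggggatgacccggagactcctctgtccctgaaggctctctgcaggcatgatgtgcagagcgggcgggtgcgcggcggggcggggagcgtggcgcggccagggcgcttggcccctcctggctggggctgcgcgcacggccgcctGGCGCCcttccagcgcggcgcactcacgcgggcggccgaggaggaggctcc
Chrd: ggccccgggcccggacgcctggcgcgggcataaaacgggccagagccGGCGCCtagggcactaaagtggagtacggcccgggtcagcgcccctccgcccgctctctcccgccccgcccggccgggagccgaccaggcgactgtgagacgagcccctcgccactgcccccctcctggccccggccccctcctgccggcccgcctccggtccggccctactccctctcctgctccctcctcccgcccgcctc

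CAGAC was found in Tgfb2, Grem1 and Fstl3, 3 of the 8 windows of genes called by DESeq2 (Nog was not matched), in 17 of the 39 windows of 30 members off chromosome 18 and in 42.2% of all 32851 promoter windows of that length. GGCGCC was found in Grem1, Smad9 and Chrd, again 3 of 8, against 9 of the 39 member windows and 9.59% of all windows. The Grem1, Smad9 and Chrd windows were GC-rich, at 72.0%, 73.2% and 78.0%, and GC content was not matched in this count. The palindrome GTCTAGAC, which occurred in 0.167% of all windows, and the E-box CAGCTG, a site read by Myod1 and found in 13.0% of all windows, occurred in 0 of the 8. A match describes the letters only.

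Among the 6 TGF-beta and activin ligands, Tgfb1 was lower and Inhba and Tgfb2 were higher in every Gmppb-KO library than in any wild-type library, none past edgeR's threshold. Tgfb1 (ENSMUSG00000002603, mm10 chr7:25687002-25705077, plus strand) encodes the most widely expressed TGF-beta isoform. In order of replicate, it stood at 223, 284 and 144 CPM in wild-type and at 118, 111 and 70.9 CPM in Gmppb-KO. All wild-type libraries lay above all knockout libraries, though wild-type replicate 3 was close to Gmppb-KO replicate 1. Mean levels came to 217 ± 70.1 and 100.2 ± 25.7 CPM (± SD, n = 3), the log2 fold change was -1.11 ± 0.30 (SE), 2.17-fold lower, and the adjusted p was 0.0808 by edgeR and 0.0129 by DESeq2.

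Tgfb2, an isoform prominent in development (ENSMUSG00000039239, chr1:186622792-186705989, minus strand), stood at 5.999, 4.66 and 7.20 CPM in wild-type and at 10.2, 12.7 and 24.5 CPM in Gmppb-KO. The groups did not overlap and Gmppb-KO replicate 3 was far above the other 2 knockout libraries. The log2 fold change was 1.41 ± 0.39 (edgeR adjusted p 0.0846, DESeq2 adjusted p 0.0132) and fell to 0.90 without Gmppb-KO replicate 3. Tgfb3 stood at 33.6, 25.7 and 36.5 CPM in wild-type and at 27.6, 24.9 and 30.6 CPM in Gmppb-KO (log2 fold change -0.20 ± 0.22, edgeR adjusted p 0.590). Its libraries overlapped, and its locus shares 5149 bases with Ttll5 on the other strand, whose reads cannot be told apart because no strand setting is given.

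Inhba (ENSMUSG00000041324, chr13:16011851-16031621, plus strand) encodes the beta A subunit of activin A. It stood at 4.99, 2.56 and 4.04 CPM in wild-type and at 6.42, 19.4 and 68.1 CPM in Gmppb-KO. The knockout libraries differed more from each other than the lowest of them differed from wild-type. The log2 fold change was 3.02 ± 0.78, 8.09-fold higher, with an adjusted p of 0.0677 by edgeR, 0.000126 by DESeq2 and 0.207 by limma voom. It was 1.69 without Gmppb-KO replicate 3 (edgeR adjusted p 0.09996), and with each library's trend with gene length removed it was 2.67 (edgeR adjusted p 0.0392). Inhbb, the beta B subunit, had a log2 fold change of 0.42 ± 0.34, and Gdf11, a ligand related to myostatin, one of 0.05 ± 0.21. Their groups overlapped.

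The balance among ligand messages was compared in CPM per kilobase. Tgfb1 made up 80.2%, 87.0% and 70.4% of the summed Tgfb1, Tgfb2 and Tgfb3 level in wild-type, as opposed to 70.3%, 69.8% and 51.5% in Gmppb-KO. Every knockout library was below every wild-type library, by only a small margin between wild-type replicate 3 and Gmppb-KO replicate 1. The means were 79.2% ± 8.37 and 63.8% ± 10.7, a difference of -15.3 percentage points (exact permutation test, 2-sided, p = 0.1, the smallest that 3 against 3 libraries allow). The Tgfb2 share was 1.88%, 1.24% and 3.06% in wild-type, as opposed to 5.28%, 6.94% and 15.5% in Gmppb-KO.

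**Figure D2:**
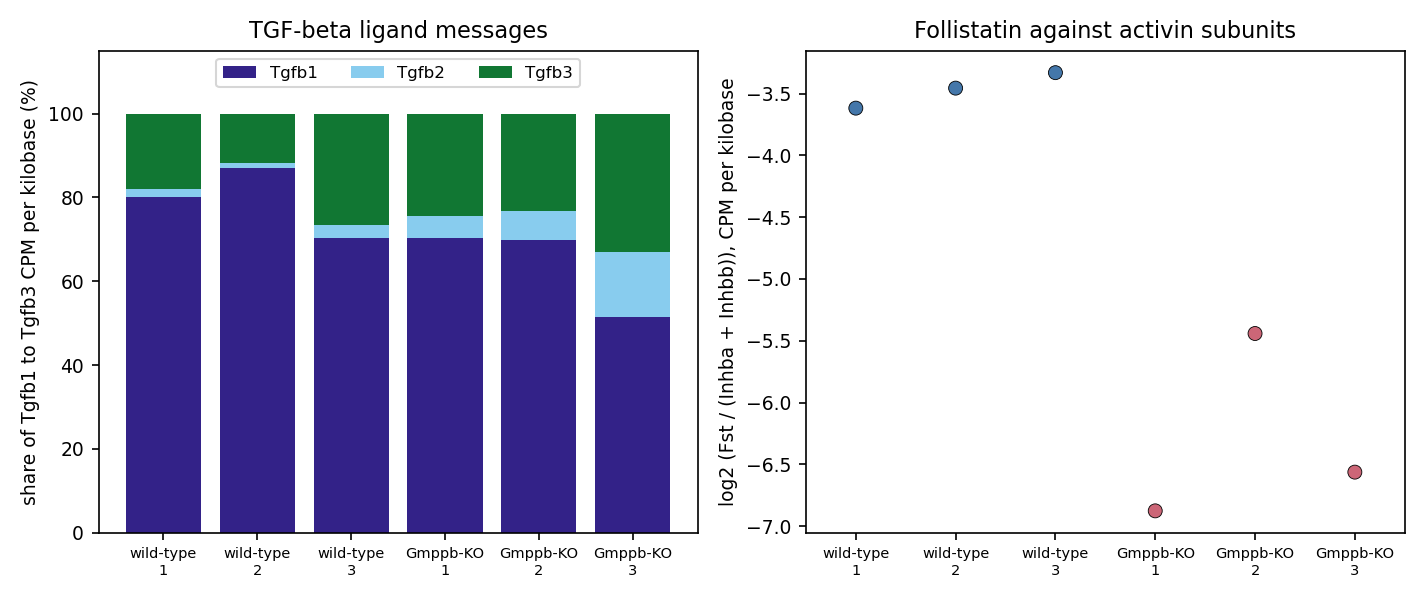
Left, shares of Tgfb1, Tgfb2 and Tgfb3 in their summed CPM per kilobase, as stacked bars for each of the 6 libraries; Tgfb1 holds 70.4% to 87.0% in wild-type and 51.5% to 70.3% in Gmppb-KO. Right, the log2 ratio of Fst to Inhba plus Inhbb in each library, -3.62 to -3.33 in wild-type (blue) and -6.88 to -5.44 in Gmppb-KO (red).

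BMP ligand messages were scarce. Bmp1, which despite its name is a protease that processes procollagens and chordin, stood at 166, 180 and 168 CPM in wild-type and at 223, 197 and 187 CPM in Gmppb-KO. The groups did not overlap, but the log2 fold change of 0.24 ± 0.18 did not pass (edgeR adjusted p 0.441) and was -0.01 with the length trend removed. Bmp4, a ligand that drives osteogenic change, stood at 3.62, 3.58 and 3.98 CPM against 3.59, 2.91 and 5.19 CPM (log2 fold change 0.07 ± 0.35, edgeR adjusted p 0.921), with overlapping groups.

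Bmp2, Bmp6 and Bmp7 had too few reads for the edgeR test. Bmp2 had 1 count in the 6 libraries together and Bmp7 had 0, which allows a level of up to 0.0282 CPM. Bmp6 had 5 counts in wild-type and 29 in Gmppb-KO, a ratio of 4.92 with an exact 95% interval of 1.88 to 16.3 that covers counting error only, and its locus shares 224 bases with the far more abundant Txndc5.

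The type 1 receptor Acvr1, which binds BMPs and activins, stood at 31.8, 29.2 and 44.6 CPM in wild-type and at 28.9, 25.6 and 40.5 CPM in Gmppb-KO (log2 fold change -0.15 ± 0.26, edgeR adjusted p 0.740), with overlapping groups. Bmpr1a, a type 1 BMP receptor, stood at 15.98, 14.4 and 15.3 CPM against 11.8, 22.3 and 59.7 CPM. Its wild-type libraries were nearly equal, whereas its knockout libraries lay on both sides of them. The log2 fold change of 1.04 ± 0.52 (edgeR adjusted p 0.298) was 0.11 without Gmppb-KO replicate 3. Tgfbr1, the type 1 receptor for TGF-beta, had a log2 fold change of 1.26 ± 0.70, which was 0.19 without that library, and Acvr1b, an activin receptor, one of -0.11 ± 0.49.

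The other type 1 receptors were too rare to be tested. Acvrl1, known mainly from endothelium, had 2 counts in wild-type and 26 in Gmppb-KO, a ratio of 11.03 (95% interval 2.76 to 95.9). By library these were 0, 1 and 1 counts against 10, 5 and 11 (DESeq2 adjusted p 0.170). Bmpr1b had 17 counts in wild-type and 2 in Gmppb-KO, a ratio of wild-type to Gmppb-KO of 10.0 (2.38 to 89.4). By library these were 8, 0 and 9 counts against 0, 0 and 2, so the groups overlapped (DESeq2 adjusted p 0.330). Both intervals are of pooled counts and cover counting error only.

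Tgfbr2, the type 2 receptor that binds TGF-beta, stood at 71.1, 59.7 and 95.4 CPM in wild-type and at 99.1, 88.3 and 132 CPM in Gmppb-KO. The means were 75.4 ± 18.3 and 106 ± 22.6 CPM, the groups overlapped through wild-type replicate 3, and the log2 fold change was 0.50 ± 0.24 (edgeR adjusted p 0.289). The co-receptor Eng stood at 9.92, 9.65 and 6.09 CPM against 7.07, 6.72 and 4.20 CPM (log2 fold change -0.51 ± 0.34, edgeR adjusted p 0.408), also with overlap. For Bmpr2, the main BMP type 2 receptor, the knockout libraries lay at 5.11, 9.24 and 50.5 CPM and the wild-type libraries at 9.68, 5.47 and 10.5 CPM. Its log2 fold change of 1.34 ± 0.77 became -0.30 without Gmppb-KO replicate 3, and that of the activin type 2 receptor Acvr2a went from 0.85 ± 0.66 to -0.20. Acvr2b, Tgfbr3 and Bambi, a decoy receptor, had log2 fold changes of -0.50, -0.03 and 0.76. All 11 tested receptors and co-receptors had overlapping groups, none passed edgeR, and none passed DESeq2 with all libraries. Without Gmppb-KO replicate 1, DESeq2 called Bmpr1a, Bmpr2 and Tgfbr1, with 11.3% of all genes called. Without Gmppb-KO replicate 3, their edgeR log2 fold changes were 0.11, -0.30 and 0.19. None of these p-values shows that receptor levels were equal.

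The 6 secreted antagonists were the role whose groups were apart most often: none overlapped, 4 were higher and 2 lower in Gmppb-KO. Fst, 1 of the 2 lower genes, reached the low-count filter (0.561 CPM) in all 3 libraries of wild-type only, where it was high. Its place in this count is therefore not independent support. Over all tested genes the groups were apart in 26.1%, 13.1% higher and 13% lower. Fstl1 (ENSMUSG00000022816, chr16:37776873-37836514, plus strand), a secreted follistatin-like glycoprotein known to bind BMPs, stood at 162, 149 and 216 CPM in wild-type and at 542, 536 and 744 CPM in Gmppb-KO. All knockout libraries lay far above all wild-type libraries. The means were 176 ± 35.2 and 607 ± 118 CPM, the log2 fold change 1.79 ± 0.25, 3.46-fold higher, and the adjusted p 0.00458 by edgeR. In the authors' deposited FPKM, a level per kilobase, Fstl1 averaged 36.2 ± 6.49 in wild-type, below Tgfb1 at 44.0 ± 15.1, and 119.9 ± 21.2 in Gmppb-KO, where no other member averaged more than 22.2. The fibroblast list was mixed, with Dcn and Mfap5 called higher and Osr1 called lower, and its part in this result was not tested.

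Nog (ENSMUSG00000048616, chr11:89300638-89302332, minus strand) encodes noggin, which binds BMPs and keeps them from their receptors. It stood at 2.79, 3.91 and 2.87 CPM in wild-type and at 10.2, 9.02 and 12.4 CPM in Gmppb-KO. The groups were far apart in relation to their spread, with a log2 fold change of 1.72 ± 0.31, 3.30-fold higher, and an edgeR adjusted p of 0.0156. The call was lost without wild-type replicate 1 (edgeR adjusted p 0.110) and without wild-type replicate 3 (edgeR adjusted p 0.0511), with log2 fold changes of 1.63 and 1.57.

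Chrd (ENSMUSG00000006958, chr16:20733127-20742384, plus strand) encodes chordin, another BMP trap. It stood at 3.03, 1.957 and 3.63 CPM in wild-type and at 7.02, 6.55 and 8.30 CPM in Gmppb-KO, so that the lowest knockout library lay well above the highest wild-type library. The log2 fold change was 1.34 ± 0.35 (edgeR adjusted p 0.0672, DESeq2 adjusted p 0.0114). Its locus shares 1385 bases with Thpo, which had a mean of 22.3 counts. Fstl3, which binds activins and myostatin, stood at 5.35, 2.77 and 12.7 CPM in wild-type and at 20.8, 16.9 and 19.5 CPM in Gmppb-KO. Its wild-type libraries varied most, and the log2 fold change was 1.46 ± 0.50 (edgeR adjusted p 0.160, DESeq2 adjusted p 0.0407).

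Grem1 (ENSMUSG00000074934, chr2:113746164-113758646, minus strand) encodes gremlin 1, a BMP antagonist of the DAN family. It stood at 66.0, 49.4 and 52.0 CPM in wild-type and at 5.06, 11.4 and 27.6 CPM in Gmppb-KO. Every knockout library was below every wild-type library, with Gmppb-KO replicate 3 the nearest to them. The means were 55.8 ± 8.92 and 14.7 ± 11.6 CPM and the log2 fold change -1.92 ± 0.53, 3.79-fold lower, with an adjusted p of 0.0841 by edgeR, 0.00117 by DESeq2 and 0.0406 by limma voom. Without Gmppb-KO replicate 3 it was -2.81 and passed edgeR (adjusted p 0.00476). In the authors' deposited FPKM, Grem1 averaged 13.7 ± 2.14 and Nog 1.92 ± 0.419 in wild-type, while in Gmppb-KO Grem1 averaged 3.41 ± 2.64 and Nog 6.03 ± 0.908. The printed Grem1 window holds both motifs, CAGAC starting 219 bases and GGCGCC 78 bases before the RefSeq start.

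Fst, which encodes follistatin, the classical activin trap, was low, at 1.07, 0.877 and 1.93 CPM in wild-type and 0.163, 0.616 and 0.707 CPM in Gmppb-KO. The groups did not overlap, and the log2 fold change of -1.37 ± 0.61 did not pass (edgeR adjusted p 0.259). All 3 libraries reached the low-count filter in wild-type only, the group where Fst was high. Set against the activin subunits in CPM per kilobase, the log2 ratio of Fst to Inhba plus Inhbb was -3.62, -3.46 and -3.33 in wild-type, as opposed to -6.88, -5.44 and -6.56 in Gmppb-KO. The ratio was lower in every knockout library, by 2.82 on average (difference -2.82, exact permutation test, 2-sided, p = 0.1, the smallest possible), and without each library in turn the difference lay between -3.25 and -2.53. In Gmppb-KO replicate 1 the ratio rests on 3 Fst counts.

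**Figure D3:**
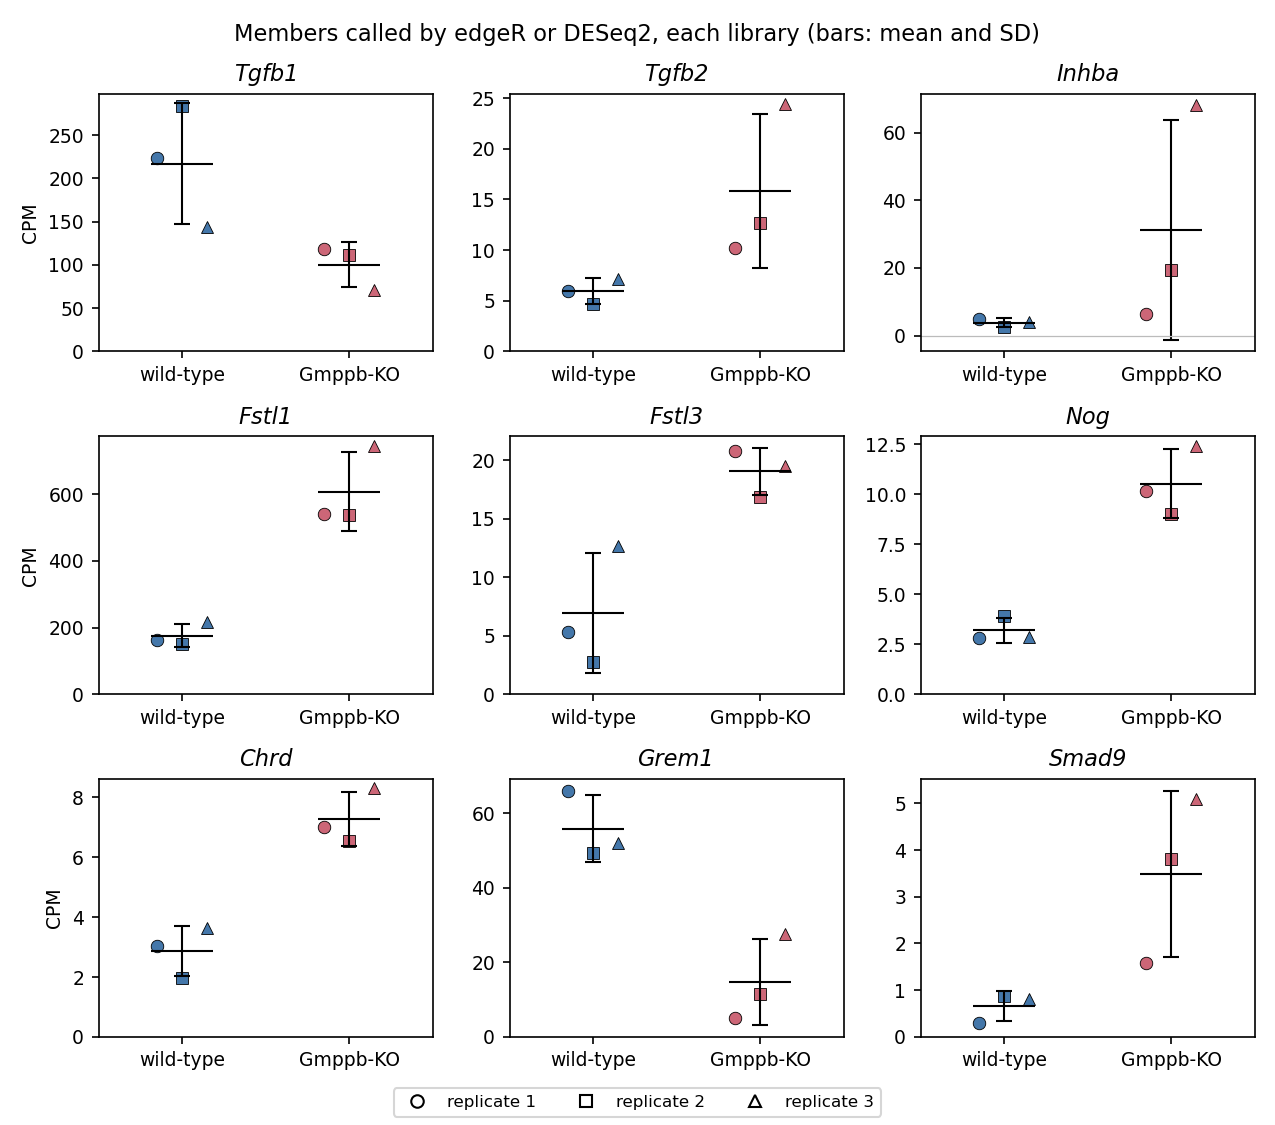
CPM of the 9 members called by edgeR or DESeq2 in each library, with wild-type in blue, Gmppb-KO in red, marker shape for the replicate number, and bars for the mean and SD (n = 3). Fstl1, at 149 to 216 CPM against 536 to 744 CPM, and Nog, at 2.79 to 3.91 CPM against 9.02 to 12.4 CPM, separate cleanly; for Inhba, Tgfb2 and Grem1 Gmppb-KO replicate 3 (triangle) lies away from the other knockout libraries.

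Among the signal-transducing Smads, Smad9 alone passed DESeq2 and none passed edgeR. Smad9 (ENSMUSG00000027796, chr3:54755582-54801257, plus strand) carries BMP signals alongside Smad1 and Smad5. Its counts were 5, 13 and 14 in wild-type as opposed to 29, 68 and 108 in Gmppb-KO, or 0.297, 0.877 and 0.819 CPM against 1.58, 3.81 and 5.09 CPM. The groups did not overlap, and the knockout libraries differed several-fold among themselves. The log2 fold change was 2.39 ± 0.60, 5.24-fold higher, with an adjusted p of 0.0591 by edgeR and 0.00504 by DESeq2. The level of the filter on low counts, 0.561 CPM in at least 3 libraries, was reached in all 6 libraries by 34 of the 38 tested members, and Smad9 fell short of it in wild-type replicate 1. All 3 libraries reached it in Gmppb-KO only, the group where Smad9 was high.

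The other Smads of this role passed neither test. Smad4, the common partner, stood at 35.5, 30.2 and 47.8 CPM in wild-type and at 36.4, 37.0 and 63.6 CPM in Gmppb-KO (log2 fold change 0.27 ± 0.29, edgeR adjusted p 0.588), with overlapping groups, and the change was -0.09 without Gmppb-KO replicate 3. Smad2, which carries TGF-beta and activin signals, stood at 29.1, 29.0 and 29.4 CPM against 33.0, 31.1 and 48.7 CPM. Its knockout libraries were all higher, but by only a few CPM in replicates 1 and 2, and the log2 fold change of 0.37 ± 0.23 did not pass (edgeR adjusted p 0.385). Smad3, Smad5 and Smad1 had log2 fold changes of 0.52, 0.08 and -0.00. The log2 ratio of the BMP-activated Smads (Smad1, Smad5 and Smad9) to Smad2 plus Smad3, in CPM per kilobase, was -0.998, -0.87 and -0.98 in wild-type, as opposed to -1.48, -1.29 and -1.06 in Gmppb-KO, a difference of -0.33 (exact permutation test, 2-sided, p = 0.1, the smallest possible).

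The 7 intracellular inhibitors and regulators gave no call, and 4 of them were higher in every Gmppb-KO library than in any wild-type library. The share of all tested genes apart in that direction was 13.1%. Smad6, which blocks BMP receptors and is itself induced by BMPs, had the largest log2 fold change of this role, 0.97 ± 0.29 (edgeR adjusted p 0.110, DESeq2 adjusted p 0.0587). Smad7, which blocks both arms, had one of 0.68 ± 0.28 and Smurf2, a ubiquitin ligase for Smads and receptors, one of 0.74 ± 0.28. Smurf1, the related ligase, stood at 116, 112 and 120 CPM in wild-type and at 154, 128 and 146 CPM in Gmppb-KO (log2 fold change 0.30 ± 0.17, edgeR adjusted p 0.355). Its groups did not overlap, though they were close. Ski, a nuclear co-repressor of Smads, stood at 65.7, 56.5 and 85.8 CPM against 71.2, 58.4 and 94.2 CPM (log2 fold change 0.10 ± 0.25, edgeR adjusted p 0.811), with full overlap. Skil and Tgif1, co-repressors as well, had log2 fold changes of 0.46 and -0.03.

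**Figure D4:**
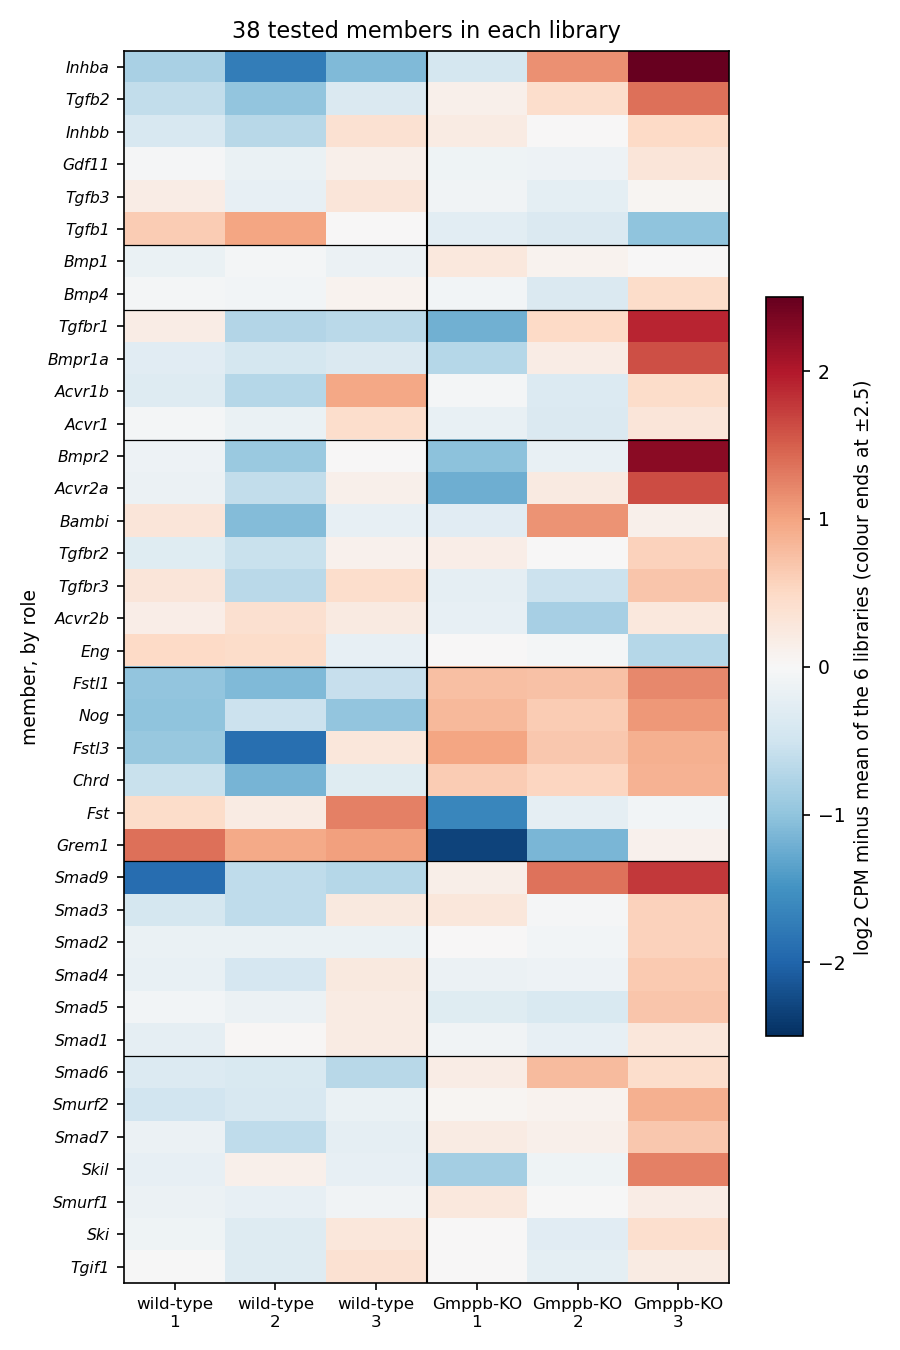
Log2 CPM of each tested member minus its mean over the 6 libraries, with members in rows ordered by role and libraries in columns; red is above and blue below the mean. Gmppb-KO replicate 3 is the highest library for 24 of the 38 members, receptors and Smads included, with a median deviation of 0.57 against -0.41 to 0.05 in the other libraries.

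The rest of the pathway was read from lists of genes outside the 43. Beside the counts called in these lists, edgeR called 2.32% of all tested genes higher and 3.27% lower. Of 4 tested other ligands 1 was called higher: Gdf6 (chr4:9844372-9862345), a BMP-type ligand of joint and skeletal development, had 0 counts in each wild-type library and 150, 123 and 284 counts in Gmppb-KO. That is 9.48 ± 3.45 CPM and at least 154-fold higher than the level of 3 counts over the wild-type group (edgeR adjusted p 0.00148), and it passed under all 15 other settings. Gdf6 entered the test only through the Gmppb-KO libraries, where it was high, so these p-values are not independent support. Mstn, which encodes myostatin, was at 0 in all libraries. Of 5 tested other receptors and co-receptors 2 were called lower, both co-receptors of the repulsive guidance family that enhance BMP signalling. Rgma stood at 15.3, 18.01 and 20.2 CPM in wild-type and at 8.81, 7.73 and 8.49 CPM in Gmppb-KO (log2 fold change -1.10 ± 0.25, edgeR adjusted p 0.0408), and Hfe2, which encodes hemojuvelin, had 92, 54 and 80 counts against 21, 24 and 12 (log2 fold change -2.18 ± 0.44, edgeR adjusted p 0.0246). The libraries of both genes were clearly apart. Rgma passed 9 of the 15 other settings, losing its call with library-size scaling and without each library except Gmppb-KO replicate 3 (log2 fold change over all settings -1.27 to -0.94). Hfe2 passed 12, losing its call without wild-type replicate 1, wild-type replicate 3 or Gmppb-KO replicate 2 (-2.42 to -1.93).

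Among 11 tested genes listed for latent TGF-beta storage and activation 1 was called lower, the latent TGF-beta binding protein family member Ltbp2 at 66.2, 63.0 and 77.1 CPM against 28.6, 27.8 and 20.9 CPM (log2 fold change -1.41 ± 0.21, edgeR adjusted p 0.00639). The other family members Ltbp1, Ltbp3 and Ltbp4 were not called (log2 fold changes -0.45, -0.13 and -0.25). Among 6 tested other antagonists 1 was called higher, decorin, a proteoglycan that can bind TGF-beta and that is also on the fibroblast list. Its gene Dcn stood at 9.80, 4.86 and 13.6 CPM against 39.1, 43.4 and 62.3 CPM (log2 fold change 2.35 ± 0.39, edgeR adjusted p 0.0102), and the call was lost without wild-type replicate 1 (edgeR adjusted p 0.0562). None of 19 tested Smad cofactors was called by any of the 3 tools, and 4 had an unadjusted edgeR p under 0.05. The share of all tested genes under that p was 20.1%.

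Genes known to respond to the 2 arms were listed apart. Of 20 tested TGF-beta response genes edgeR called 3 higher and 1 lower and DESeq2 called 9, with a median log2 fold change of 0.11, the same as that of all tested genes. Over all tested genes edgeR called 2.32% higher and 3.27% lower, and DESeq2 called 8.17%. The matrix and matricellular genes Ctgf, Col1a1 and Postn rose, with log2 fold changes of 3.43 ± 0.25, 3.26 ± 0.29 and 4.89 ± 0.59. Junb, an immediate early transcription factor, fell from 156, 139 and 170 CPM to 97.9, 89.4 and 77.8 CPM (log2 fold change -0.81 ± 0.19, edgeR adjusted p 0.0424). That call was lost with library-size scaling and without each library except Gmppb-KO replicate 3, over a range of -0.97 to -0.67. Of 11 tested BMP response genes edgeR called 0 higher and 1 lower, DESeq2 called 2, and the median was -0.49. At an unadjusted edgeR p under 0.05, 4 passed, against 20.1% of all tested genes. The gene called lower was Tlx2, a homeobox gene, whose wild-type libraries held 24, 51 and 31 counts and whose knockout libraries held 3, 6 and 4 (log2 fold change -3.25 ± 0.57, edgeR adjusted p 0.0139). Tlx2 entered the test only through the wild-type libraries, where it was high, so its p-value is not independent support.

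The Id genes, the BMP targets most often used as a readout and known to hold Myod1 inactive, were picked out after their values were seen. Id1 stood at 48.5, 52.6 and 33.6 CPM in wild-type and at 27.7, 30.2 and 31.3 CPM in Gmppb-KO, without overlap (log2 fold change -0.59 ± 0.23, edgeR adjusted p 0.201). Id2 had a log2 fold change of 0.10 ± 0.23 and Id3 one of 0.36 ± 0.24, both with overlapping groups. None of the 3 passed under any of the 15 other settings, which include DESeq2 and limma voom.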

How the data were processed

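RNA of C2C12 cells, extracted with Trizol and made into libraries with an NEBNext Ultra kit per the labels' protocols, was measured in 3 wild-type and 3 Gmppb-KO libraries, grouped by sample title. The authors deposited 1 table. Its counts per gene are whole numbers, not normalized, per the file headers. Tools named in the submitters' processing notes are HISAT2, featureCounts of Subread, DESeq2 and FastQC, with the build mm10; the annotation release and strand setting were not given in the sources used here. FPKM columns made by the authors, per kilobase of the deposited gene length, were used only to compare levels between genes. The deposited mean signal (normalized counts), log2 fold changes and p-values of the authors are not printed. The 201 loci without a gene name, 0.0699% to 0.195% of counts, were left out.

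The main test was edgeR 4.0.16 (R 4.3.3, TMM scaling, filterByExpr, quasi-likelihood F test, 2-sided, group as the only term, Benjamini-Hochberg adjustment over 12786 genes, threshold 0.05), with DESeq2 1.42.0 and limma 3.58.1 voom as alternatives. CPM uses the TMM-scaled library size, and changes are relative to that scaling. Means carry the SD over n = 3 and log2 fold changes the standard error (SE). Ratios of ligand or Smad levels used CPM per kilobase and an exact permutation test. Intervals of pooled counts and the limit of 3 counts for a count of 0 cover counting error only. Other alternatives were 3 scalings, 2 filters, a replicate block, an offset removing each library's length trend (loess, span 0.5) and leaving out each library. Only the main edgeR fit was run on simulated counts, drawn independently for each gene and without the length trends of the libraries. That run does not bear on the other settings or on the deviation of Gmppb-KO replicate 3.

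Members and lists were chosen with earlier results of these data known. Values in every library are given for members called by edgeR, DESeq2 or voom, for the 2 members of each role with the highest mean FPKM, and, chosen after their values were seen, for Fst and Bmpr2; up to 4 called genes are named from each other list. Promoters are from RefSeq (GRCm38.p6), for 30 members. Members on chromosome 18 (Smad2, Smad4, Smad7 and Bambi) were left out of the member windows, a rule not applied to the count over all windows.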

Additional observations from a re-analysis of the deposited data

How the results depend on the processing

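Fstl1 passed under all 15 other settings. Nog kept its sign in all of them and lost its call without wild-type replicate 1 and wild-type replicate 3. Over all genes, 715 calls became 1295 with DESeq2, 1419 with a filter of at least 1 count and 1618 with the replicate block, 1001 with the length trend removed, and 331 to 749 without single libraries. Calls among the members, 2 at first, were 9 with DESeq2, 8 with the filter, 8 with the block and 7 with the length trend removed, and 1 to 4 without single libraries. The higher calls were 7, 6, 6 and 6 in that order and 1 to 4 without single libraries. The lower calls, 0 at first, were 2, 2, 2 and 1, also 1 with limma voom, and 0 to 1. TGF-beta and activin genes called, 0 at first, were 4, 4, 3 and 2, and 0 to 2. BMP genes called, 1 at first, were 4, 3, 4 and 4, also 2 with limma voom, and 0 to 2. The 9 DESeq2 calls became 4, 5 and 9 without wild-type replicates 1, 2 and 3, with 4.39%, 4.75% and 10.5% of all genes called. They became 10, 6 and 6 without Gmppb-KO replicates 1, 2 and 3, with 11.3%, 5.99% and 7.57% of all genes called. This check was added after seeing the data.

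The deviations of same-numbered libraries had correlations of -0.18, 0.51 and 0.42. Those of numbers 2 and 3 were the highest of all combinations, whereas wild-type replicate 1 correlated best with Gmppb-KO replicate 2 (0.14). Whether the numbers pair the libraries was therefore left undecided. The direction of the 3 level ratios held under the settings tried. Of 567 log2 fold changes of members under other settings, 40 had the opposite sign; none of them belongs to a member that DESeq2 called. With library-size scaling they were Tgfbr3 0.14, Acvr1b 0.014, Acvr1 0.013, Smad1 0.18 and Tgif1 0.12. With the length trend removed they were Gdf11 -0.051, Smad5 -0.22, Bmp1 -0.011, Ski -0.077 and Skil -0.036. With RLE scaling they were Gdf11 -0.031, Bmp4 -0.014 and Smad5 -0.0015, with DESeq2 Gdf11 -0.020 and Bmp4 -0.00017, with the filter of at least 1 count Gdf11 -0.025 and Bmp4 -0.0079, with limma voom Acvr1b 0.040 and with the replicate block Acvr1b 0.033. Without single libraries the ranges that crossed 0 were Tgfbr3 -0.54 to 0.20, Acvr1b -0.44 to 0.49, Acvr2a -0.20 to 1.20, Gdf11 -0.16 to 0.12, Bmp4 -0.25 to 0.24, Bmpr2 -0.30 to 1.70, Smad1 -0.21 to 0.10, Smad5 -0.40 to 0.27, Smad4 -0.092 to 0.40, Ski -0.15 to 0.26, Skil -0.40 to 0.72, Tgif1 -0.22 to 0.083 and, outside the members, Id2 -0.094 to 0.26. The cause was not tested. Depth limits Bmp2, Bmp6, Bmp7, Bmpr1b and Acvrl1, which edgeR did not test.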
